A study of Rattus norvegicus with 4 samples.

Results

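Genes of the interleukin-1 (IL-1) family of cytokines, with its antagonists and receptors, were examined in rat macrophages exposed to titanium dioxide particles. They were the agonist genes Il1a, Il1b, Il18 and Il33, the antagonist gene Il1rn, the IL-18 binding protein gene Il18bp, and the receptor genes Il1r1, Il1r2 and Il1rap. The genes were chosen by name, and every array probe whose transcript accession matched one of them was taken. All 9 genes had a probe, 10 probes in all, of 16581 genes with a named probe and 45598 probes on the array. The cells were NR8383, an alveolar macrophage line that goes back to lung lavage of a healthy rat, used here after 20 passages, so all cultures share that one origin. The 4 cultures (replicates 1 to 4) formed 1 group of biological replicates, per the design text, and were given TiO2 particles (NM105, p25 anatase/rutile) at 3 cm2 of particle surface per cm2 for 4 h. Cultures without particles were not analysed here, and no value below is a response to the particles. RNA of each culture was labelled with the dye Cy3 and hybridised to 1 array. What could be compared was signal against background and 1 replicate culture against another.

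IL-1α and IL-1β act on the same receptor, IL1R1, which signals only together with its accessory chain IL1RAP. The receptor antagonist encoded by Il1rn occupies IL1R1 without signalling, and the decoy receptor IL1R2 binds the cytokine without passing a signal on. IL-1β and IL-18 are made as inactive precursors that caspase-1 cuts, and IL-18 binding protein captures mature IL-18. IL-33 is a nuclear alarm cytokine known mainly from epithelial and stromal cells, and it acts through IL1RL1 together with IL1RAP. In macrophages Il1b is a classic target gene of NF-κB, and release of IL-1β after particle uptake is a textbook property of the inflammasome.

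Of the 9 genes, 6 gave signal well above background on all 4 arrays, against 35.2% of all named genes. They were Il1a, Il1b, Il1rn, Il18, Il18bp and Il1rap. Il33 was detected on 1 array, as were 5.8% of named genes, and the receptor genes Il1r1 and Il1r2 on none, where 53.7% of all named genes also lay. The cultures thus gave signal for both IL-1 agonists, for their antagonist and for the accessory chain, while the signalling receptor and the decoy receptor were not well above background. The same 6 genes were counted when the rule was a signal above the 99th percentile of negative controls (44.4% of named genes) or the software's flag for positive and significant signal (46.8%). Detection is the scanner software's call for each spot, and a gene that is not well above background may still be expressed. In RNA of whole cultures, fewer cells expressing a gene and less of its RNA per cell cannot be told apart.

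**Figure D1:**
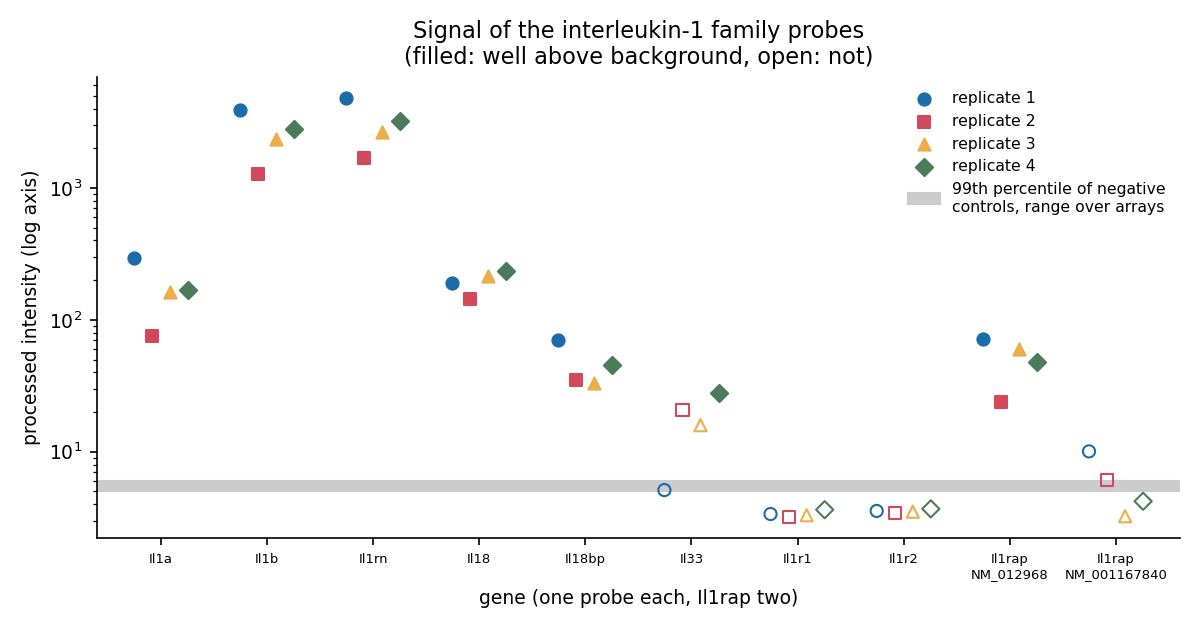
Processed intensity (vertical log axis) of the 10 probes of the interleukin-1 family (horizontal axis) on the arrays of replicates 1 to 4, 1 point per array, filled where the probe was well above background and open where it was not. The grey band spans the 99th percentile of the negative control spots, 5.07 to 5.96 intensity units over the 4 arrays. Il1r1 and Il1r2 on all arrays, Il33 on replicate 1 and the dimmer Il1rap probe on replicates 3 and 4 lie at or under the band.

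The stretches around the start of the 4 brighter cytokine and antagonist genes are shown, of which Il1b, Il1a and Il1rn were lowest on the same array (replicate 2, below) and Il18 on another. The accessory chain gene Il1rap, also lowest on replicate 2 by its brighter probe, though not under every correction (below), is described without its letters. Each runs 5′ to 3′ from 250 bases before to 50 bases after the start annotated by RefSeq on the GRCr8 assembly. The stretches are Il1b at chr3:137036532-137036831 (minus strand), Il1a at chr3:136989968-136990267 (minus strand), Il1rn at chr3:27520072-27520371 (plus strand) and Il18 at chr8:59801822-59802121 (plus strand). Capitals mark matches, on either strand, to 6 motifs: the TATA box as TATAAA, NF-κB as GGGA and TCC with any 3 bases between, AP-1 as TGANTCA, C/EBP as TTNNGNAA, PU.1 as GAGGAA and the interferon-stimulated response element as GAAA and GAAA with any 2 bases between.
Il1b: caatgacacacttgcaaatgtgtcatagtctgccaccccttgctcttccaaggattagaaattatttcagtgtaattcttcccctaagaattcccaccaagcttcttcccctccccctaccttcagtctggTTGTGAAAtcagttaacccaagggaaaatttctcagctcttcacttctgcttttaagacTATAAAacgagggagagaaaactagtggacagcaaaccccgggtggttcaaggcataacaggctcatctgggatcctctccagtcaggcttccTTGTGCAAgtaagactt
Il1a: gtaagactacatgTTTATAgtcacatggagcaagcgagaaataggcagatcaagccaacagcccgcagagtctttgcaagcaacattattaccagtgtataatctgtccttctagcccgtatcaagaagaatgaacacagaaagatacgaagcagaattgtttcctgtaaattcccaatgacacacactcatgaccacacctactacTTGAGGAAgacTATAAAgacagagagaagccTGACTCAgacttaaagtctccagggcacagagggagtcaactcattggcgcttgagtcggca
Il1rn: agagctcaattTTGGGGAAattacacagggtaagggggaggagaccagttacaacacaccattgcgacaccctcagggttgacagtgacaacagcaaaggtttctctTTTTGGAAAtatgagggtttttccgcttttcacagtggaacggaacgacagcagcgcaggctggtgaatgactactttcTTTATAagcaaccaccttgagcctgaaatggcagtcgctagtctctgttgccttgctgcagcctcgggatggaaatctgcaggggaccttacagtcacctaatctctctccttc
Il18: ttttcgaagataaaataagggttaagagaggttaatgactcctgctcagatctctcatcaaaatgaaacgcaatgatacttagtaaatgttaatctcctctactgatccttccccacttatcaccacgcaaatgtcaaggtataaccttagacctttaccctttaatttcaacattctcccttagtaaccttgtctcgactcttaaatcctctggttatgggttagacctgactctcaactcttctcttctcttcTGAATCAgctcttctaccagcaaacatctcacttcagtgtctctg

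TATAAA, the usual core of the TATA box, lay 60 bases before the annotated start of Il1b and 32 bases before that of Il1a, with another match on the opposite strand of Il1a at 237 bases. Il1rn had it on the opposite strand at 64 bases, and the Il18 stretch had no match. This motif occurred in 14.2% of 33469 promoter stretches of the same length. The letters of C/EBP, a factor family known to act on Il1b, matched 119 bases before and 33 bases after the start of Il1b. They matched 43 bases before the start of Il1a and at 3 places in the Il1rn stretch, of which 2 overlap, and 41.3% of all stretches had a match. The C/EBP match of Il1a overlaps its PU.1 match at 41 bases before the start, and PU.1 letters occurred in 27.6% of stretches. AP-1 letters lay 12 bases before the start of Il1a and 5 bases after that of Il18, and occurred in 7.33% of stretches. None of the 4 stretches held the NF-κB letters (4.09% of stretches) or those of the interferon-stimulated response element (3.92%). Il1rap has 2 annotated stretches, which overlap, and each held the interferon-stimulated response element letters and no TATAAA or C/EBP match. A match describes letters in this window, and the arrays measured no binding.

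Il1b, the main secreted agonist of activated macrophages, had a processed intensity of 3919, 1269, 2344 and 2814 on replicates 1 to 4. These values were 232 to 697 times the 99th percentile of the array's negative control spots, spots that match no transcript of the cell. The arrays differed in brightness, and the 75th percentile of probes detected on all 4 arrays was 1431, 585, 767 and 831 intensity units on replicates 1 to 4. A level below is the log2 signal of a gene minus log2 of this value, so that a difference of 1 between arrays is a 2-fold difference. Levels compare arrays for 1 gene and do not rank genes, because each probe has its own brightness. The level of Il1b was 1.45, 1.12, 1.61 and 1.76 on replicates 1 to 4, a mean of 1.49 ± 0.28 (SD, n = 4). Replicate 2 was the lowest and replicate 4 the highest, with a span of 1.56-fold. Without replicate 2 the SD of Il1b was 0.16. Where an array was left out, the reference was taken again from the probes detected on the 3 arrays left, so such an SD can differ slightly from that of the printed levels.

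Il1a, the agonist that also acts from the cell surface and the nucleus, followed the same low point. Its intensity was 296, 75.5, 162 and 169 on replicates 1 to 4. Its level was −2.28, −2.95, −2.24 and −2.30, a mean of −2.44 ± 0.34 (SD, n = 4). Replicates 1, 3 and 4 were nearly level and replicate 2 stood apart below them, and the SD without replicate 2, on the reference of the other 3 arrays, was 0.019. That array had the lowest brightness of the 4, and its Il1a spot was still 13.8 times the negative control limit. The part of array brightness in this low value was not tested. After normexp background correction, which adds an offset to every spot, the SD of Il1a was 0.17, and replicate 2 was still the lowest.

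Il1rn, which encodes the receptor antagonist, was the only one of the 9 genes whose probe was printed more than once, at 10 spots per array. The spots used had a median intensity of 4691 on replicate 1 (4338 to 6374 over 9 spots), 1686 on replicate 2 (1543 to 2034 over 9 spots), 2625 on replicate 3 (2517 to 2917 over 10 spots) and 3118 on replicate 4 (3002 to 3712 over 9 spots). Its level was 1.75, 1.54, 1.79 and 1.95 on replicates 1 to 4, and the SD between spots was 0.16, 0.11, 0.062 and 0.10. Replicate 2 was again the lowest and replicate 4 the highest, 1.33-fold apart, and the SD between arrays was 0.17, or 0.11 without replicate 2. The repeated spots allowed a test of 1 array against another, fitted with limma to all 1594 probes that had at least 2 spots and were detected on all 4 arrays. Il1rn passed it (moderated F, Benjamini-Hochberg adjusted p = 2.08e-07), as did 85.2% of the probes tested.

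**Figure D2:**
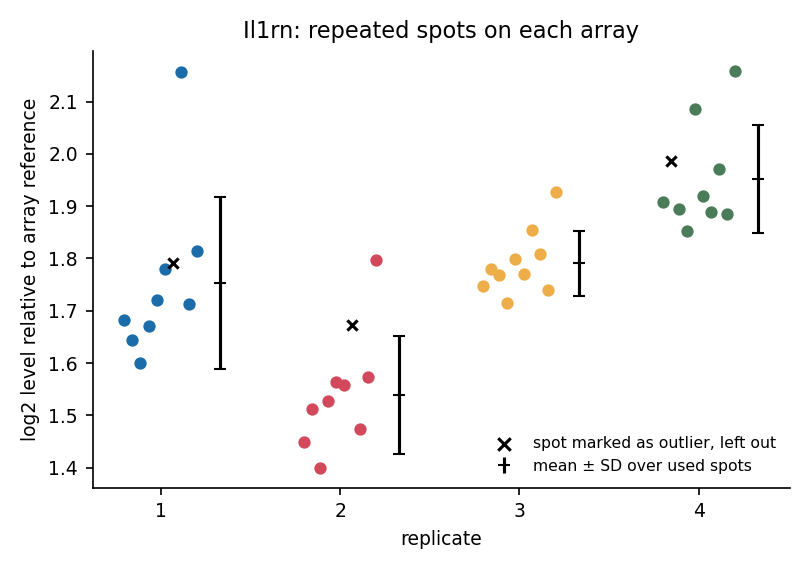
Level of Il1rn (vertical axis, log2 signal minus log2 of the array's reference) at each of its 10 spots on the arrays of replicates 1 to 4 (horizontal axis). Bars give the mean ± SD over the spots used, and crosses are spots marked as outliers by the software and left out. The means are 1.75, 1.54, 1.79 and 1.95, and the spots of replicate 2 overlap those of replicate 1 but lie below every spot of replicate 4.

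Between pairs of arrays, Il1rn was higher on replicate 4 than on replicate 2 by 0.41 on the log2 scale (95% confidence interval 0.30 to 0.52, limma adjusted p = 3.08e-08). It was higher on replicate 3 than on replicate 2 by 0.25 (0.15 to 0.36, limma adjusted p = 0.000113). Replicates 3 and 1 differed by 0.037 (−0.069 to 0.14, limma adjusted p = 0.54), an interval that holds 0. The largest distance among the 4 arrays was under the median distance over all probes tested, 0.41 against 0.46. Its error is that between spots on 1 array, so the differences hold culture, extraction, labelling and hybridisation together. With a minimum of 1.5-fold between the highest and lowest array, Il1rn was not called, while 27.2% of probes were, and with a minimum of 2-fold 4.64% were.

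Il18, whose product drives interferon-γ from lymphocytes, differed between the arrays in another way. Its intensity was 190, 145, 213 and 233 on replicates 1 to 4, which on the scaled axis put replicate 1 lowest. Its level was −2.91, −2.02, −1.85 and −1.83, with replicate 1 well below the others. The mean was −2.15 ± 0.51 (SD, n = 4), and the SD was 0.10 without replicate 1. Of the 5824 named genes detected on all 4 arrays, 5.0% had a higher SD, and Il18 is described here as the highest of the 6. Replicate 1 was the brightest array, yet its intensity for Il18 was near that of the other arrays. Before scaling, the SD of the log2 intensity of Il18 over the 4 arrays was 0.30, the lowest of the 6. The others had from 0.49 (Il18bp) to 0.81 (Il1a). Intensities before scaling also hold the brightness of each array. The ratios of Il18 to the other detected genes on the same array, given below, had SDs from 0.51 to 0.66. The part of replicate 1 in the low value was not tested.

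The gene of the protein that neutralises IL-18, Il18bp, was dimmer. Its intensity was 70.1, 34.8, 33.2 and 45.5 on replicates 1 to 4, between 6.36 and 12.5 times the negative control limit. Its level was −4.35, −4.07, −4.53 and −4.19, a mean of −4.29 ± 0.20 (SD, n = 4), with replicate 2 the highest and replicate 3 the lowest. Il18bp was thus highest where Il1a, Il1b and Il1rn were lowest. It spanned 1.38-fold at 1 spot per array, with a software error of 11.2% to 15.0% per spot.

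Il33 was at the edge of detection. Its intensity was 5.12, 20.7, 15.9 and 27.9 on replicates 1 to 4, and the call well above background was made on replicate 4. On replicate 1, the brightest array, Il33 lay below the negative control limit, and on replicates 2, 3 and 4 it was 3.77, 3.13 and 4.68 times that limit. Of all named genes, 0.127% were well above background on replicate 4 alone, against 5.15% on replicate 1 alone. A pattern like that of Il33, above the negative control limit on replicates 2, 3 and 4 and not on replicate 1, was shown by 0.235% of named genes. The patterns behind 0.127% and 0.235% were read from the values of Il33 itself. These shares therefore describe it and are no test of rarity. The software error of the Il33 spot was 74.7% on replicate 1 and 17.8% to 26.1% on the others, and no level is given for it. Of 7 epithelial markers (Epcam, Cdh1, Krt18, Krt19, Sftpc, Scgb1a1 and Cldn18), 0 were well above background on any array. Of all named genes, 53.7% were well above background on none. Col1a1 was the only one of 6 fibroblast markers detected on some array, and it was detected on 1. Its intensity was 22.0, 3.56, 5.01 and 3.82 on replicates 1 to 4, so it was brightest where Il33 was dimmest. Of 5 endothelial markers, Cdh5 was detected on all 4 arrays and the other 4 on none. The origin of the Il33 signal was not tested.

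The signalling and the decoy receptor gene gave like values. Il1r1, the signalling receptor of IL-1, had 3.37, 3.18, 3.30 and 3.63 intensity units on replicates 1 to 4, and Il1r2, the decoy receptor, had 3.56, 3.41, 3.51 and 3.69. All 8 values were under the negative control limit, close to the median negative control spot of 3.51, 3.58, 3.67 and 3.82 units on the same arrays. Each had 1 named probe, that of Il1r1 annotated to a predicted transcript model. Whether these probes also match other transcripts of the genes was not tested.

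Il1rap, the accessory chain shared by the receptors for IL-1 and IL-33, had 2 probes that disagreed. The probe for transcript NM_012968 had an intensity of 71.5, 23.9, 60.5 and 47.7 on replicates 1 to 4 and was well above background on all 4 arrays. The probe for transcript NM_001167840 had 10.1, 6.15, 3.24 and 4.21 and was well above background on none. The second probe was above the negative control limit on 2 arrays, at 1.79 times it on replicate 1 and 1.12 times on replicate 2, and was flagged positive and significant on 3. The level of Il1rap refers to the brighter probe. That level was −4.32, −4.62, −3.66 and −4.12 on replicates 1 to 4, a mean of −4.18 ± 0.40 (SD, n = 4), lowest on replicate 2 and highest on replicate 3, and the SD was 0.26 without replicate 3. Averaging both probes gave an SD of 0.12 and put replicate 4 lowest, and after normexp correction replicate 1 was lowest.

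Across the 6 detected genes the median SD between arrays was 0.31, against 0.23 over all 5824 named genes detected on all 4 arrays, whose quartiles were 0.16 and 0.32. Within the family it ran from 0.17 for Il1rn to 0.51 for Il18. Replicate 2 was the lowest array for 4 of the 6 genes (Il1a, Il1b, Il1rn and Il1rap), as it was for 32.2% of all detected genes. Replicate 1 was the lowest for Il18 (25% of all detected genes), replicate 3 for Il18bp (22.2%), though after normexp it was replicate 1, and replicate 4 for none of the 6 (20.6%). For Il1a, Il1b and Il1rn, replicate 2 stayed the lowest under each of the 4 other scalings and corrections tried. For Il1rap the lowest was replicate 1 after normexp, and replicate 4 with both probes averaged. The median deviation of the 6 genes from their own means was −0.29 on replicate 2, where that of all detected genes was −0.013. Without replicate 2 the median SD of the 6 genes was 0.17, and without replicate 1, 3 or 4 it was 0.29, 0.29 and 0.33. Replicate 2 was the lowest array for most of these genes, so a lower SD without it follows from that. The SD of all detected genes was not taken without replicate 2, so 0.17 cannot be set against 0.23.

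**Figure D3:**
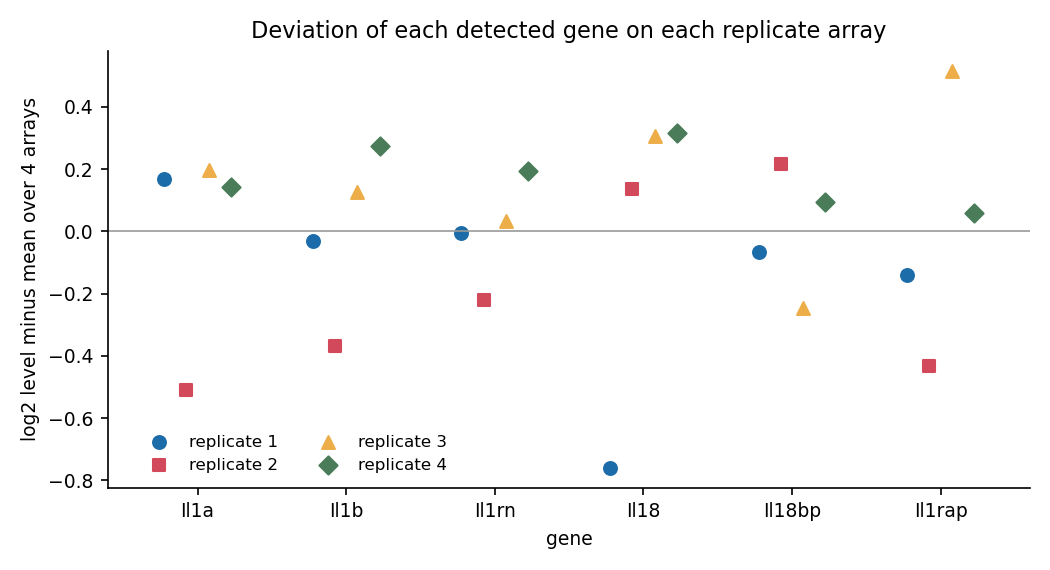
Level of each of the 6 detected genes (horizontal axis) on each replicate array minus the gene's mean over the 4 arrays (vertical axis, log2 scale), 1 point per array. Replicate 2 is the lowest point for Il1a (−0.51), Il1b (−0.37), Il1rn (−0.22) and Il1rap (−0.43), and replicate 1 for Il18 (−0.76).

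How the genes moved against each other was read from the ratio of their signals on the same array, which is free of the scaling between arrays. The ratio of Il1b to Il1rn, the agonist and its antagonist, changed least among the 15 pairs. Its log2 value was −0.30, −0.42, −0.18 and −0.19 on replicates 1 to 4, with an SD of 0.11 and a span of 1.18-fold. Of all pairs of detected genes, 4.46% had a lower SD, which describes a pair picked as the lowest of 15 and is no sign of unusual constancy. The SD was 0.066 without replicate 2. The agonists Il1a and Il1b followed, with an SD of 0.17, and their log2 ratio was highest on replicate 1 (−3.73) and lowest on replicate 2 (−4.07).

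The ratio of Il1a to Il18 changed most, 2.98-fold between replicate 1 (log2 value 0.64) and replicate 2 (−0.94), with −0.40 on replicate 3 and −0.46 on replicate 4. Its SD was 0.66, and 0.29 without replicate 1. The ratio of Il18 to Il18bp, cytokine over binding protein, had an SD of 0.53, with log2 values of 1.44, 2.05, 2.68 and 2.36, lowest on replicate 1 and highest on replicate 3, and an SD of 0.32 without replicate 1. The 5 pairs with Il18 had SDs from 0.51 to 0.66, against a median of 0.33 over all pairs of detected genes. Each of these SDs fell most when replicate 1 was left out. They were then 0.12 with Il1rn, 0.24 with Il1b, 0.29 with Il1a, 0.32 with Il18bp and 0.39 with Il1rap. Other arrays had a part too: the SD with Il1rap was 0.44 without replicate 2, and that with Il18bp 0.47 without replicate 3. The pair of Il18bp and Il1rap, without Il18, had the next highest SD after Il1a and Il18 of the 15, 0.58. The median over the 15 pairs of the family was 0.41. These ratios describe 4 arrays and carry no test, and the value of a ratio also holds the brightness of its probes.

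**Figure D4:**
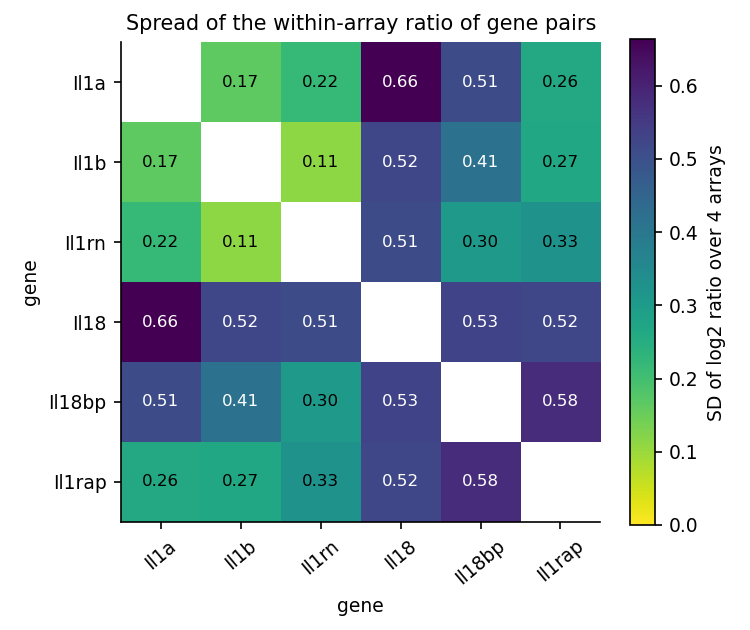
SD over the 4 arrays of the log2 ratio of signals within an array, for each pair of the 6 detected genes (both axes list genes, and the colour scale gives the SD on the log2 scale). Il1a, Il1b and Il1rn form the lowest values (0.11 to 0.22), and the pairs with Il18 are between 0.51 and 0.66.

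The genes whose deviations over the 4 arrays were nearest to those of Il1b, by the root mean square difference, were Unc50 (0.018), Galk2 (0.020) and Rras2 (0.027), and 133 of 5823 genes lay within 0.1. Those nearest to Il18, the family gene with the highest SD, were Mcmbp (0.037), Ncbp1 (0.039) and Timm10b (0.043), with 26 genes within 0.1. Like Il18, these 3 were lowest on replicate 1, for instance Mcmbp at −3.20, −2.27, −2.09 and −2.02 on replicates 1 to 4. These genes were picked as the nearest of 5823 over only 4 arrays, and their closeness carries no test.

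The family was then set in its genomic neighbourhood and pathway. In the order of protein-coding genes in RefSeq, Il1rn closes a run of 6 IL-1 family genes (Il36g, Il36a, Il36b, Il36rn, Il1f10 and Il1rn), and it alone was detected, while the other 5 were detected on no array. Il1a and Il1b are neighbours, and both were detected. Il1r1 opens a run of 5 receptor genes with Il1rl2, Il1rl1, Il18r1 and Il18rap, and none of the 4 with a named probe was detected. Among all 11 measured IL-1 family genes outside the 9, 0 were detected on any array. Beside these counts, 53.7% of all named genes were detected on no array. Il1rl1, the receptor of IL-33, had 3.16 to 3.61 intensity units, and Il18r1, the ligand-binding chain of the IL-18 receptor, had 2.89 to 3.59.

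Genes that mature and release the cytokines were detected in part: 5 of 10 measured were on every array (35.2% of all named genes), 2 on fewer and 3 on none. The inflammasome sensor gene Nlrp3 had levels of −4.52, −4.55, −3.54 and −3.74 on replicates 1 to 4, higher on replicates 3 and 4 than on the others. Its adaptor Pycard was at −1.58, −1.99, −1.83 and −1.92, and the membrane rupture gene Ninj1 at 0.52, 0.82, 0.40 and 0.40. Nlrp1a and Nek7 were not detected. Casp1, which encodes the protease that cuts both precursors, was detected on 2 arrays, at 49.4, 18.0, 17.8 and 36.8 intensity units on replicates 1 to 4. It was singled out for this role after its values were seen.

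Of 15 measured genes of signalling below the receptor, 9 were detected on every array, 3 on fewer and 3 on none, beside 35.2% of all named genes on every array. The adaptor gene Myd88 was at 1.43, 2.05, 1.73 and 1.63 on replicates 1 to 4, highest on replicate 2. The kinase gene Irak1 was at −3.08, −3.09, −3.08 and −3.01 and was nearly level. Its relative Irak2 was at −3.63, −4.40, −4.20 and −4.01, lowest on replicate 2. The kinase gene Irak4 and the ubiquitin ligase gene Traf6, both of the same receptor complex, were detected on no array. Of the 9 detected genes, 5 were lowest on replicate 2, where 32.2% of all detected genes were lowest. In the maturation list it was 2 of 5, with the other 3 lowest on replicate 3, and in the NF-κB list below 3 of 10.

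Genes of NF-κB and of IL-1 output were detected on every array in 10 of 13 measured cases (35.2% of all named genes), on fewer arrays in 1 and on none in 2. The inhibitor gene Nfkbia was at 0.66, 0.03, 0.16 and −0.02 on replicates 1 to 4, highest on replicate 1. The subunit gene Nfkb1 was at −3.31, −4.24, −3.58 and −3.44, and Nfkb2 at −1.03, −1.43, −1.68 and −1.36. The prostaglandin synthase gene Ptgs2 and Il6, both classic IL-1 target genes, were not detected. The other genes of the list detected on every array were Rela, Zc3h12a, Cxcl2, Ccl2, Icam1, Sod2 and Lcn2. Cxcl1 was detected on fewer arrays. Over the 24 detected genes of these lists, 10 were lowest on replicate 2 (41.7%, against 32.2% of all detected genes), and their median deviation there was −0.073.

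**Figure D5:**
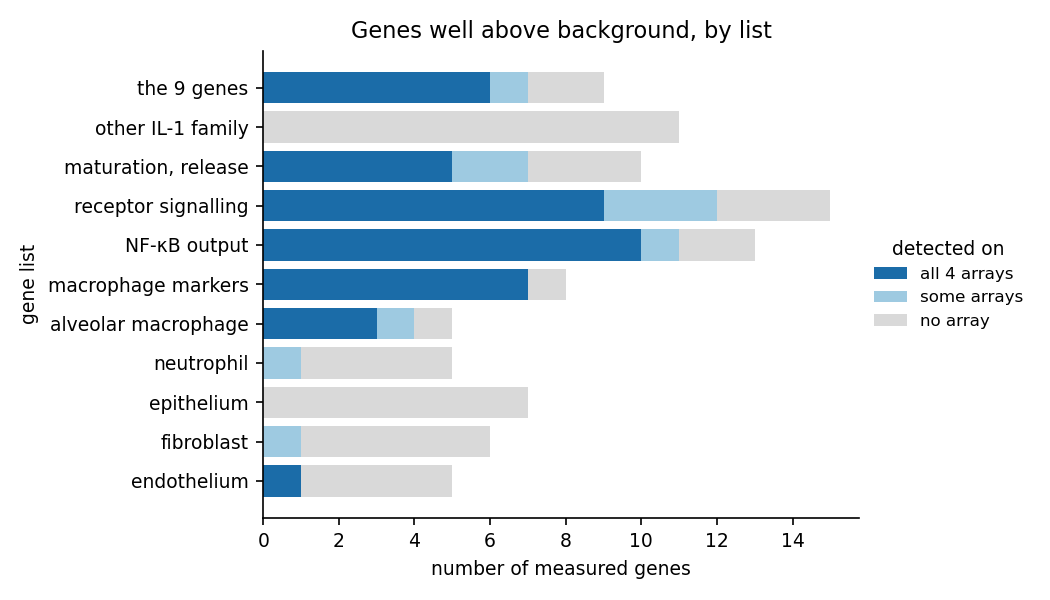
Number of measured genes (horizontal axis, bars from 0) detected on every array, on fewer or on no array, for the 9 interleukin-1 family genes, 4 pathway lists and 6 lists of cell type markers (vertical axis). The 9 genes divide into 6, 1 and 2, while the other 11 IL-1 family genes were all detected on no array.

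The cell identity of the cultures bears on these values. Of 8 macrophage markers, 7 were detected on all 4 arrays (35.2% of all named genes), among them Cd68, Csf1r and Itgam, and Adgre1 on none. Of 5 measured alveolar macrophage markers, 3 were detected on all 4 arrays (Pparg, Siglec1 and Fabp4), Mrc1 on 1 array and Marco on none. Over 6 lists of other cell types, 1 of 29 measured markers was detected on all 4 arrays. It was the endothelial cadherin gene Cdh5, at 18.9 to 26.6 intensity units. Of the 29 markers, 26 were detected on none, as were 53.7% of all named genes. Of 5 measured neutrophil markers, 4 were detected on no array, while S100a8 was detected on 2, at 8.04 to 32.8 intensity units over the 4 arrays. The cultures were of 1 cell line, and the origin of these marker signals was not tested.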

How the data were processed

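RNA of 4 exposed NR8383 cultures, 1 group, was measured. Each deposited file gives 1 array's intensity for every spot. Agilent Feature Extraction 11.0.1.1 wrote it, per the file headers (protocol GE1_1100_Jul11, array design 074036), with background subtraction and spatial detrending within the array, a floor above 0 and no normalization between arrays. The deposited flags of 0 or 1 mark spots well above background. All arrays lay on 1 slide. Control spots and outlier spots were left out of intensity values, and 0 gene spots were saturated. A probe's spots were averaged as log2 values. Levels are relative to the 75th percentile of the probes detected on all 4 arrays, because 23.7% to 31.6% of probes were detected per array. A probe was detected when over 50% of its spots were flagged, and a gene with at least 1 such probe. The brightest probe gave the level. The authors' software gives accessions, which were matched without version to RefSeq symbols (21109 of 45598 probes). The number of arrays, 4, limits the precision, and 1 spot per array gives most levels.

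Arrays were compared by moderated F tests (limma 3.58.1, R 4.3.3, Benjamini-Hochberg over 1594 probes), spots being replicates within an array, after a check on simulated data. The simulated spots were drawn independently of each other, with shifts added to some probes. That check cannot tell how the test behaves where spots share an effect of their position. Tables and plots used Python 3.11.15 with pandas 2.3.3, numpy 2.4.6 and matplotlib 3.10.9. Members and lists were chosen with earlier results of these data known. Named were all 9 members, the first 3 genes of each list detected on all 4 arrays, the first 2 detected on none, and the 3 genes nearest in pattern to Il1b and to the member with the highest SD. The other genes of the NF-κB list detected on any array were named as well. Lists of T cell and B cell markers (0 of 4 and 0 of 2 measured detected on any array) were included. Alternatives were other scalings, quantile normalization, normexp (offset 50, on the median spot signal), other detection rules and probe rules, fold minima, no filter on dim probes, the part of the array as a block, and each replicate left out. The flag for positive and significant signal was added after seeing the data.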

Additional observations from a re-analysis of the deposited data

Results flagged for a closer look

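Of 26 genes or probes checked, 2 had 1 replicate far from the other 3, where chance flags about 1 in 20. The level of Il1a on replicate 2, −2.95, stood apart from −2.28, −2.24 and −2.30 on replicates 1, 3 and 4, with a gap of 0.92 of the whole range. The level of Il18 on replicate 1, −2.91, stood apart from −2.02, −1.85 and −1.83 on replicates 2, 3 and 4, with a gap of 0.831 of the range. Il1a was measured at 1 spot per array and Il18 likewise. What made these values low was not tested.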

How the results depend on the processing

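The count of 6 genes detected on all 4 arrays was 5 when every probe of a gene had to be detected, which leaves out Il1rap, and 6 under the other detection rules and without any single replicate. The median SD of the 6 genes, 0.31, was between 0.24 and 0.29 under the other scalings, corrections and probe rules, and between 0.17 and 0.33 when a replicate was left out, the low value being that without replicate 2. Il1rn, the 1 gene of the family that could be tested between arrays, passed with no filter on dim probes (as did 81.5% of all probes tested), over the 75th percentile of all probes (86.3%), over the median of detected probes (85.2%), after normexp (66.2%), with the part of the array as a block (90.6%) and without each replicate (70.8% to 81.8%), with limma adjusted p from 6.83e-09 to 0.00266. Most probes passed with it, and with a fold minimum of 1.5 or 2 the count was 0. The adjusted p without a fold minimum was 2.08e-07. Levels relative to another reference shifted together for all genes. The SD of Il1a was 0.17 after normexp. No paired analysis was possible because the samples form 1 group. Il18bp, Il33 and Il1rap lie within 12.7 times the negative control limit, and signal over background limits what can be said of them, as it does of Il1r1 and Il1r2, which were under it.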
